A study of Mus musculus with 6 samples.

Results

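The skeletal muscle lineage of the mouse limb bud was followed from its migrating precursors to the first myocytes in single cells of E11.5 limbs (embryonic day). Members were the cells that the deposited annotation calls Muscle or Myocyte: 1113 of 26486 cells in 6 libraries, of which 1089 of 24891 remained after cells with 2000 or fewer detected genes were set aside. In both annotations the 2 words name the whole muscle class and not a stage, so the position of each cell between precursor and myocyte was worked out here from its own transcripts.

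Limb muscle does not arise in the limb. Its precursors leave the somites under the control of Pax3, migrate into the bud with the help of the receptor Met and the homeobox factor Lbx1, and then start the myogenic factors Myf5 and Myod1 while still dividing. Myog marks the step at which a cell leaves the cycle and builds sarcomeres, and the membrane proteins Mymk and Mymx then let myocytes fuse into fibres. Forelimbs run ahead of hindlimbs in this sequence.

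The study asked how structural variants at the Lbx1/Fgf8 locus, which underlie split-hand/foot malformation type 3, alter gene expression in limb cells. The tandem duplication (Dup, homozygous) was made in a C57BL/6 background and taken as hindlimb beside a C57BL/6 wild-type hindlimb. The inversion (Inv1, homozygous) was made in G4 embryonic stem cells, a 129sv and C57BL/6 hybrid line, and taken as hindlimb and forelimb beside G4 wild-type limbs. Mutant embryos were derived from CRISPR-edited embryonic stem cells by aggregation, and the duplicated segment holds Lbx1, Btrc, Poll, Dpcd and Fbxw4. Each of the 6 groups was 1 library, so that between any pair of libraries the intervals given here are 95% exact intervals of the counts, they cover counting error only, and no test between groups was possible. Where 6 values follow each other below, their order is C57BL/6 wild-type hindlimb, Dup hindlimb, G4 wild-type hindlimb, Inv1 hindlimb, G4 wild-type forelimb and Inv1 forelimb.

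The libraries held 132, 188, 221, 268, 112 and 168 muscle cells, that is 5.87, 4.04, 3.94, 4.51, 4.05 and 4.57% of their cells. Their summed unique molecular identifiers (UMIs, the counted transcripts) were 2.10, 2.07, 3.85, 4.39, 2.02 and 3.00 M (M, 1e6 UMIs), and the median muscle cell held 9760 UMIs in Dup and 13852 to 16660 in the other libraries. Levels are given as CPM, counts scaled to a total of 1e6 muscle UMIs in each library. The G4 wild-type forelimb stood apart: there long genes read high, with a median log2 ratio to the G4 wild-type hindlimb that went from -0.19 for genes under 5 kb to 0.79 for genes of 100 to 200 kb in muscle, and from -0.20 to 0.72 over the whole range of lengths in mesenchyme. Every muscle comparison with this library is therefore given with the ratios centred on genes of like length where that changes a statement. Ratios of single genes in mesenchyme are given without centring. Of the cell barcodes, 86 occurred in more than 1 library, among them those of 10 muscle cells.

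**Figure D1:**
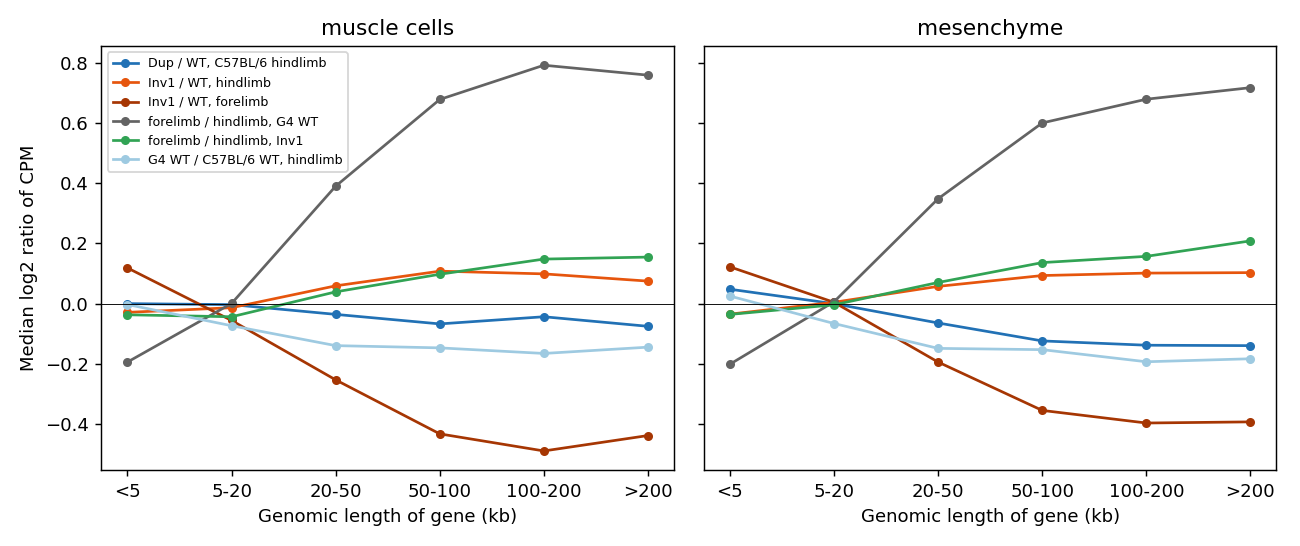
Median log2 CPM ratio of muscle (left) and mesenchyme (right) for genes grouped by genomic length, with 1 line for each pair of libraries. The line of G4 wild-type forelimb over hindlimb climbs from -0.19 to 0.79 in muscle, that of Inv1 over wild type in the forelimb falls to -0.49, and the other lines lie much closer to 0.

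The markers of the lineage were high in the labelled cells, whose clusters the authors had themselves named from marker genes. Pax3 lay at 31 to 144 CPM in muscle and at 0.0583 to 1.67 in mesenchyme, Lbx1 at 85.3 to 211 against 0.224 to 2.09, and Myod1 at 208 to 491 against 0.647 to 2.62. Myog, Actc1 (cardiac actin, the first sarcomeric actin of the embryo) and Met showed the same gap. UMIs of at least 2 of these 6 genes were found in 1012 cells (92.9%), and 12 cells had none. Mesenchymal markers summed to 182 to 369 CPM, 8.79 to 14.4% of their level in mesenchyme, and endothelial markers to 1.82 to 8.70 CPM. Cartilage markers stood at 9.91 to 16.8% of the mesenchymal level and blood markers at 54.1 to 66.8%. Connective tissue markers stood at 37.8 to 56.2%, and 1 of them, Tcf4, averaged 299 CPM in the precursor and 315 in the myocyte range defined below. Acta2, smooth muscle actin, which early skeletal myocytes also make, was the exception at 319 to 1313 CPM in muscle against 2.02 to 7.13 in mesenchyme, while the other smooth muscle genes of that list were low.

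Each cell was thinned to 4000 UMIs and placed by 2 lists. The differentiation list held 16 genes (Myog, Mymk and 14 sarcomere genes) and the precursor list 4 (Pax3, Pax7, Met and Msc, a repressor of myogenic factors); Lbx1 was in neither, since its locus is altered in the mutants. Cells in which under 1/3 of the list UMIs came from the differentiation list form the precursor range, those with at least 2/3 the myocyte range, and 305 cells with under 3 list UMIs stayed unplaced. These are ranges of a continuous score and not cell types: the number of cells close to the upper cut was 5, 25, 15, 25, 12 and 17.

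The differentiation UMIs of single cells showed a long, thin tail. The median cell carried 1, 3, 1, 3, 5 and 5 differentiation UMIs among its 4000, while the highest carried 358, 330, 378, 440, 248 and 392. The tenth of the cells with the most differentiation UMIs held 62.0 to 87.8% of them all. In the wild-type hindlimbs most cells were thus at the early end: 74.2% of the C57BL/6 and 67.4% of the G4 cells had 2 or fewer differentiation UMIs, against 31.3% in the G4 wild-type forelimb.

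**Figure D2:**
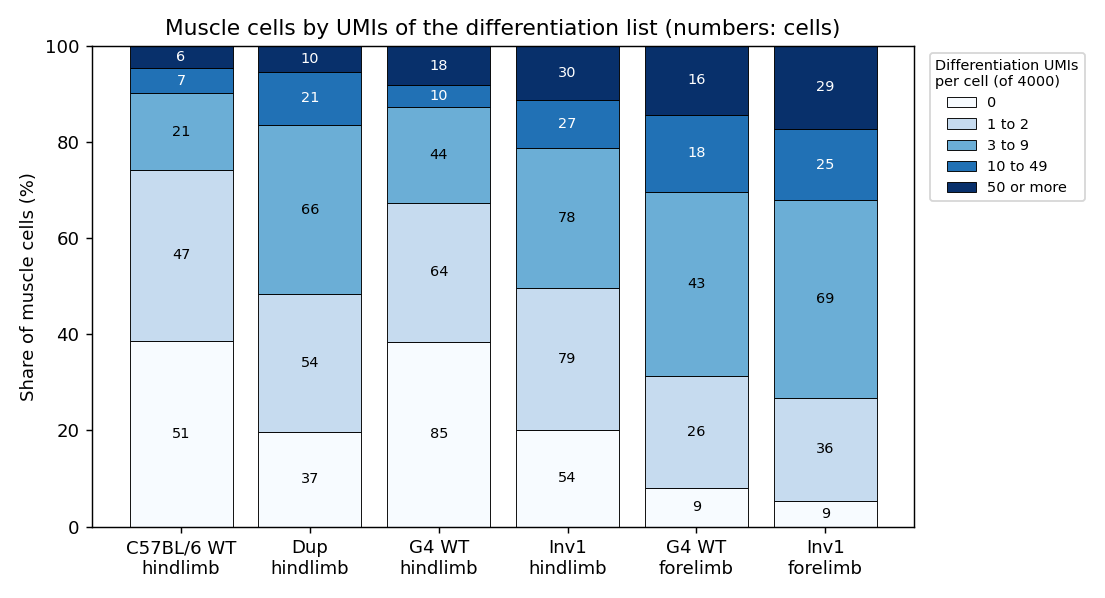
Share of muscle cells (percent, vertical axis) of each library by the number of differentiation-list UMIs among 4000, in bins of 0, 1 to 2, 3 to 9, 10 to 49 and 50 or more. Cells with 0 of these UMIs make up 38.6 and 38.5% of the C57BL/6 and G4 wild-type hindlimbs and 8.04 and 5.36% of the wild-type and Inv1 forelimbs, where cells with 50 or more make up 14.3 and 17.3%.

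What moves with differentiation was asked inside each library, by comparing the myocyte range with the precursor range and taking the library as a block in edgeR's quasi-likelihood test. The 5 libraries with at least 10 cells in both ranges entered; the G4 wild-type forelimb had 7 precursor-range cells and did not. The ranges were cut on transcripts of these same cells, so genes that vary with the lists had to differ, and the test shows how steadily they did so across libraries. Of 5454 genes outside the lists, 394 rose (7.22%) and 210 fell (3.85%) at an adjusted p under 0.05. Without the Inv1 hindlimb the counts were 256 and 117, and without the G4 wild-type hindlimb 283 and 138. DESeq2 called 206 and 55, all of them among those edgeR called in the same direction.

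Genes of fusion and excitation rose without exception among those measured: 7 of 7 passed the test and none fell. Mymx, which opens the fusion pore, lay at 387, 149.5, 486, 343 and 313 CPM in the myocyte ranges of the 5 libraries in the order above, with a single UMI in all 5 precursor ranges together. This gives a pooled ratio of 575 (103 to 22727). Chrna1, a subunit of the muscle acetylcholine receptor, lay at 80.0, 50.2, 161, 111 and 142 CPM against 7.79, 0, 7.65, 1.92 and 0, a log2 difference of 4.72 ± 0.30 (SE, edgeR adjusted p = 2.92e-23). For both genes the lowest myocyte range lay above the highest precursor range. Chrng, the fetal subunit of that receptor, rose by 4.41 ± 0.44, the calcium pump Atp2a1 by 2.85 ± 0.22, the calcium release channel Ryr1 by 2.05 ± 0.38, the creatine kinase Ckb by 1.81 ± 0.10 and the adhesion protein Jam3 by 1.69 ± 0.16 on the log2 scale.

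The sarcomere genes that had no part in the placing rose as well, 5 of 5. Tnnt3, a troponin T of fast fibres, stood at 31.1 to 146.5 CPM in the myocyte ranges with 3 UMIs in the precursor ranges, a pooled ratio of 70.1 (23.9 to 341). Neb, the giant ruler of the thin filament, rose by 3.84 ± 0.20 and Tnni2, a fast troponin I, by 3.09 ± 0.25, while the tropomyosins Tpm1 and Tpm2, already present in precursors at means of 894 and 559 CPM, rose by 1.18 ± 0.06 and 1.40 ± 0.08.

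Of the genes highest in the contrast, Il17b, a cytokine gene, stood at 108, 61.2, 154, 132 and 170 CPM in the myocyte ranges with 0 UMIs in every precursor range, at least 78.6-fold higher over the pooled cells. Mybph, a myosin binding protein, was also at 0 in every precursor range and at least 52.1-fold higher. Cryab and Hspb2, small heat shock proteins that stabilise sarcomeres, had pooled ratios of 282 (50.6 to 11164) and 69.7 (23.8 to 339). Lmod3, a nucleator of thin filaments, had a ratio of 162 (29.0 to 6424), and Fndc5 one of 51.9 (17.7 to 252). Klhl41, which keeps sarcomeres in order, rose by 4.62 ± 0.30 and Arpp21 by 4.64 ± 0.27 on the log2 scale.

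Among the myogenic factors outside the placing lists, 4 of 10 rose and 3 fell. Mef2c, which works with the myogenic factors on sarcomere genes, stood at 238, 92.3, 303, 349 and 461 CPM in the myocyte ranges against 10.4, 7.27, 0, 1.92 and 0 in the precursor ranges, a log2 difference of 6.46 ± 0.27. Its relative Mef2a rose by 1.98 ± 0.19 and Myod1 by 2.26 ± 0.12. Myf5, the earlier determination factor, fell by 1.05 ± 0.15, from 119, 116, 111, 134 and 229 CPM to 46.5, 71.2, 60.3, 67.0 and 75.8. Meox2, a homeobox gene of limb muscle precursors, fell by 1.32 ± 0.17 and Eya1, a transcriptional cofactor, by 0.83 ± 0.18, each in 4 of 5 libraries. Myf5 and Myod1 thus ran in opposite directions.

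**Figure D3:**
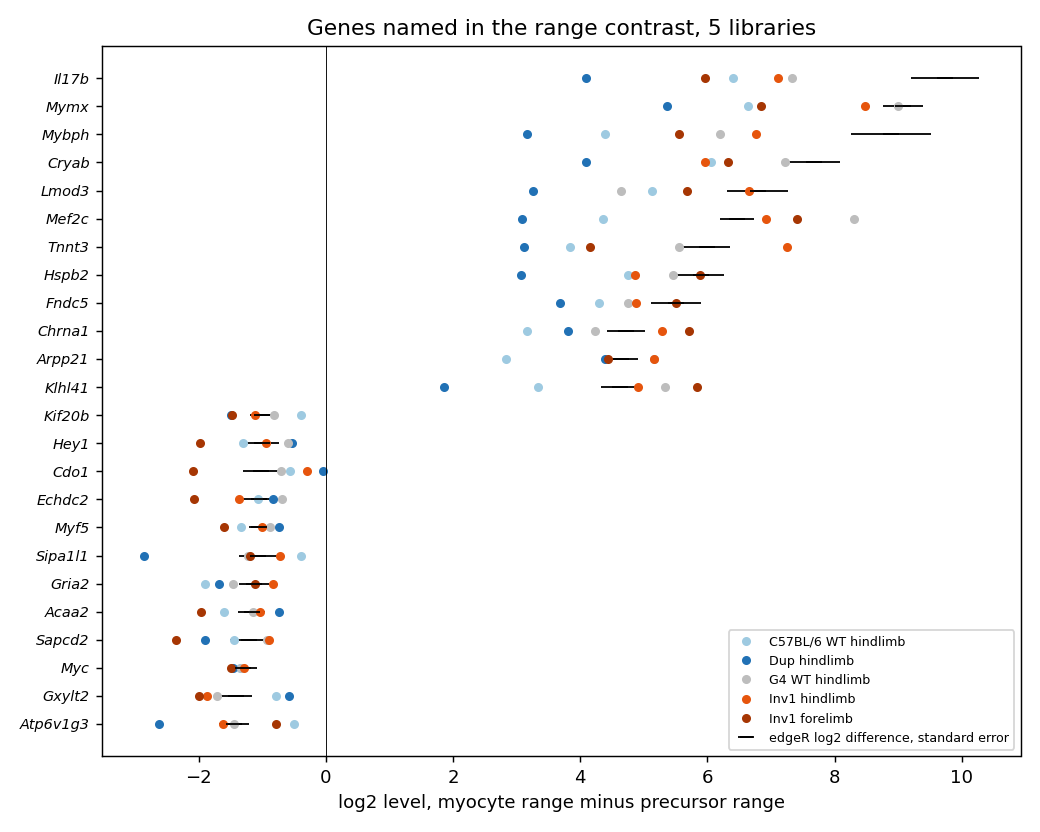
Log2 difference between myocyte and precursor range for the genes of the contrast, with the edgeR estimate and its standard error as a bar and each library as a dot (0.5 counts added). The dots of Mymx and Mef2c lie far to the right, those of Myf5 to the left of 0 in each of the 5 libraries.

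The promoters of these genes were set beside the contrast because the myogenic factors bind E-boxes and the Mef2 proteins an A/T-rich element. RefSeq promoters (GRCm38.p6) were searched over the 250 bases before each start for the E-box CAGCTG, whose reverse strand reads the same, and on both strands for the letters of a MEF2-type element (CTA, any 4 bases, TAG); the motifs were counted apart, without regard to overlap. Over 32851 promoters of all genes, 13.0% held the E-box and 3.20% the MEF2-type letters. Promoters were found for 9 of 18 genes of the fusion and excitation list, of which 6 of 9 promoters held the E-box (66.7%), and for 15 of 16 genes of the differentiation list, with 7 of 17 promoters (41.2%). Of the 12 highest genes 6 had an entry, with 6 of 16 promoters holding it (37.5%) in 4 genes; 9 of these 16 belong to Arpp21 and some of them overlap. Of the 12 lowest 8 had an entry, with 1 of 9 promoters (11.1%). These are counts of letters in a window and not of bound sites. The last 150 bases before the start are shown for 4 genes of the programme, with the motifs in capitals: Chrna1 (chr2:73580339-73580488, minus strand) with E-boxes 92 and 44 bases before the start, the intermediate filament gene Des (chr1:75360142-75360291, plus strand) with 1 at 36, the fast myosin light chain gene Mylpf (chr7:127211458-127211607, plus strand) with 1 at 51, and Klhl41 (chr2:69669970-69670119, plus strand) with an E-box at 127 and the MEF2-type letters at 63.
Chrna1: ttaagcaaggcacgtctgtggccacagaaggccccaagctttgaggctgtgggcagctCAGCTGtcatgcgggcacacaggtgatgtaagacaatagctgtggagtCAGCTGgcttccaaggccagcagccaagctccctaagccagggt
Des: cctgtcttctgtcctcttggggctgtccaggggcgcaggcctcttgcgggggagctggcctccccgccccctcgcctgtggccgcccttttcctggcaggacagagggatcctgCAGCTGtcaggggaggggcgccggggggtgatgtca
Mylpf: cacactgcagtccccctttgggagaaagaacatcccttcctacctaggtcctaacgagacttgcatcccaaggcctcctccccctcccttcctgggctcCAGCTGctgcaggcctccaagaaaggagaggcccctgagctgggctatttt
Klhl41: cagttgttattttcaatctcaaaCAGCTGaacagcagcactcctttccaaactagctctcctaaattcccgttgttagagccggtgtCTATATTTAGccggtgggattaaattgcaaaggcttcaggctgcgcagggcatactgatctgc

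Of 8 measured genes of the Notch pathway, which holds muscle precursors back from differentiation, 3 rose, 1 fell and 4 did not pass the test. The ligand Dll1 rose by 2.67 ± 0.39, the nuclear partner Rbpj by 1.22 ± 0.17 and Hes6, which opposes Hes1, by 1.27 ± 0.10. The target Hey1 lay at 38.2 CPM on average in the precursor and 17.5 in the myocyte range and fell in 5 of 5 libraries (edgeR adjusted p = 0.00690), and Hes1 differed by -0.24 (edgeR adjusted p = 0.19). In the split by differentiation UMIs given below, 4 of 9 Notch genes rose and 3 fell. There Hes1 fell by 0.60 ± 0.13 and Hey1 by 2.24 ± 0.32, each in 6 of 6 libraries.

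Of 6 migration and adhesion genes, 2 rose and 1 fell. M-cadherin (Cdh15), the cadherin of myoblasts, rose by 1.73 ± 0.17 and Ncam1 by 0.76 ± 0.19, whereas N-cadherin (Cdh2) fell by 0.85 ± 0.20. Spry2, a feedback inhibitor of FGF signalling, was the 1 gene of 8 in the FGF and signalling list that rose, by 1.00 ± 0.20. Id1 and Id3, inhibitors of the myogenic factors, rose by 0.38 ± 0.09 and 0.33 ± 0.08, and neither passed the test when cells were split by differentiation UMIs alone. Id2, the third Id gene measured, differed by 0.03 here. In that split Id2 alone of the 3 passed, and it fell by 0.52 ± 0.09 in 6 of 6 libraries. Erbb3 and Acta2, which stand in the marker lists of glia and of smooth muscle, rose by 1.75 ± 0.28 and 2.82 ± 0.14, while Sox10 and the other smooth muscle genes were too low to be tested.

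Genes of cell cycle exit moved with differentiation: 7 of 9 rose and 2 fell. Cdkn1c, the p57 inhibitor, rose by 1.69 ± 0.06 from a mean of 1700 to 5260 CPM, Cdkn1a (p21) by 2.38 ± 0.16, Gadd45g by 2.95 ± 0.16 and Rb1, the retinoblastoma protein, by 2.83 ± 0.29. Of the D cyclins, Ccnd1 and Ccnd2 fell by 0.47 ± 0.16 and 0.44 ± 0.11, and Ccnd3 rose by 0.65 ± 0.10. In the G2/M list 10 of 16 genes fell, among them Cenpf by 0.81 ± 0.11 and Top2a by 0.52 ± 0.10, and none rose. No gene of the S-phase list of 14 passed the test in this contrast.

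Per cell, the share with at least 2 G2/M UMIs of 4000 was lower in the myocyte range than in the precursor range in 6 of 6 libraries. The G4 wild-type forelimb was included here with its 7 precursor-range cells, although it was left out of the contrast above. The means were 70.0% and 87.4%, a difference of -17.4 ± 2.91 points (SD; exact sign-flip permutation test, two-sided, p = 0.03125, which is the smallest that 6 libraries can give). For S-phase UMIs the difference was -15.3 ± 5.28 points with the same p, and adjusting over the 4 shares compared left it as it was. Without thinning the G2/M difference shrank to -6.33 ± 4.14 points (SD), with libraries from -11.1 to -0.606. Over all muscle cells the G2/M share was 90.2, 84.0, 82.8, 84.0, 76.8 and 64.9%, and counts of free RNA between cells can add to such UMIs.

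Splitting the cells by differentiation UMIs alone, 10 or more against 2 or fewer, let all 6 libraries enter. Genes of both placing lists were again left out of the test. This split was chosen after the data were seen. Of 7182 genes 1454 rose (20.2%) and 1339 fell (18.6%). The S-phase list now fell, 12 of 14 genes, with 13 of 16 of the G2/M list. Sarcolipin (Sln), a regulator of the calcium pump, stood at 0 to 0.433 CPM in early cells and at 26.5 to 520.5 in late ones, and Stac3, which couples excitation to calcium release, rose by 7.37 ± 0.37.

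Of the genes that fell in this split, Sp5, a direct Wnt target, lay at 32.1, 61.1, 99.0, 48.5, 72.1 and 32.6 CPM in early cells and at 13.2, 0, 2.38, 1.12, 7.19 and 2.04 in late ones, and fell by 3.99 ± 0.33. Nkd2, a Wnt antagonist, fell by 2.69 ± 0.27, and the transcription factors Sim2 and Zic1 by 3.10 ± 0.31 and 2.82 ± 0.27. Meox2 fell by 2.75 ± 0.18 and Myf5 by 2.32 ± 0.16, both in 6 of 6 libraries. Dusp6, an ERK phosphatase, fell by 1.75 ± 0.32 and Fgfr4, the FGF receptor of myoblasts, rose by 1.29 ± 0.23. Of the 8 Hox and limb identity genes measured 6 fell, Hoxa13 by 1.94 ± 0.26 and Hoxa10 by 1.08 ± 0.15. Of 8 mesenchymal markers measured 3 fell and 1 rose, with a median log2 difference of -0.63. The part of mesenchymal RNA in the fall of the Hox genes was not tested.

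Between the libraries the cells were spread very differently along the continuum. The myocyte range held 20.5, 50, 27.1, 43.7, 55.4 and 66.1% of muscle cells, and the precursor range 20.5, 5.85, 14.9, 11.2, 6.25 and 5.95%. Each mutant had a larger myocyte share than its own wild type and each forelimb a larger one than the hindlimb of its genotype, under each of the 10 or 11 settings tried. The gap was 6.64 to 30.0 percentage points for Dup, 8.60 to 20.3 for Inv1 hindlimb and 1.79 to 13.7 for Inv1 forelimb. For Inv1 forelimb the exact intervals of the shares, 58.4 to 73.2% against 45.7 to 64.8%, overlapped.

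Summed over all muscle cells, the differentiation list stood at 1631, 2811, 3236, 6375, 4986 and 11649 CPM, while the precursor list stayed between 318 and 391. The ratio of the 2 lists was 4.2, 8.85, 8.27, 18.6, 14.4 and 32.1. It was 2.11 times higher in Dup than in its wild type (1.88 to 2.36), 2.25 times higher in Inv1 hindlimb (2.08 to 2.42) and 2.22 times higher in Inv1 forelimb (2.01 to 2.45). It was also 1.97 times higher in the G4 than in the C57BL/6 wild-type hindlimb (1.79 to 2.16). The difference between the wild types was therefore of the same size as those between mutant and wild type, and with 1 library a group a genotype and the stage of the dissected limb cannot be told apart.

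Much of the list came from a few cells. Without cells of 50 or more differentiation UMIs the list stood at 596, 1047, 620, 1125, 1532 and 1618 CPM, where the mutant hindlimbs kept their distance and Inv1 forelimb lay close to its wild type. Within cells of 2 or fewer differentiation UMIs it still read 212, 298, 217, 341, 379 and 475 CPM, higher in each mutant. Within cells of 10 or more, the summed level was 0.945 times the wild type in Dup (0.901 to 0.991), 1.10 times in Inv1 hindlimb (1.08 to 1.13) and 2.14 times in Inv1 forelimb (2.09 to 2.19). These intervals cover the counting of UMIs and leave out the spread between cells. Late cells made up 9.85, 16.5, 12.7, 21.3, 30.4 and 32.1%, and the exact intervals of these shares overlapped for each mutant and its wild type, at 8.59 to 17.8% and 16.5 to 26.7% for G4 wild-type and Inv1 hindlimb. Of 4000 UMIs, the late cells of C57BL/6 wild type held 86.8 ± 95.6 differentiation UMIs (SD over 13 cells) and those of Dup 61.4 ± 78.0 (31 cells), with medians of 48 and 33. In the forelimbs they held 65.7 ± 61.3 in wild type (34 cells) and 116 ± 118 in Inv1 (54 cells). Median UMIs were lower in late than in early cells of every library, 10808 against 16202 in the C57BL/6 wild type for instance.

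The C57BL/6 and G4 wild-type hindlimbs, which carry no variant, were set side by side to give the difference between 2 libraries without a variant. With 1 library each, background, preparation and stage of the limb cannot be told apart. The differentiation list had 13 of 15 measured genes over 1.5-fold higher in G4 and none lower, with a median log2 ratio of 1.08 against -0.10 for all genes, where 2.65% were higher and 8.88% lower (4.13% and 5.31% after centring). Acta1 stood at 7.60 and 95 CPM, a ratio of 12.5 (7.59 to 22.1), Actc1 at 418 and 852, Mylpf at 217 and 564 and Myog at 215 and 331. Pax3 was at 0.764 (0.658 to 0.888) and Myod1 at 1.26 (1.13 to 1.42). The direction was thus that of each mutant against its wild type, between libraries without a variant. Markers of other cells differed as well: the mesenchymal list was at 0.556 of the C57BL/6 level in G4 (0.502 to 0.617, 4 of 6 measured genes lower), the cartilage list at 0.427 (0.351 to 0.520, 2 of 2) and the blood list at 0.245 (0.232 to 0.258, 4 of 4). Cells with 5 or more mesenchymal markers made up 18.2% and 8.60% of C57BL/6 and G4 muscle cells. Without them the ratio of differentiation to precursor list between the wild types was 2.33, against 1.97 over all muscle cells. Their part in the ratios of single genes was not tested.

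In Dup hindlimb, 11 of the 14 differentiation genes measured were over 1.5-fold higher than in wild type and none lower, with a median log2 ratio of 0.81 against -0.02 for all genes, where 1.61% of 5275 genes were over 1.5-fold higher and 2.9% lower (1.71% and 2.39% after centring by length). The fusion and excitation list had 3 of 7 genes higher and none lower. Myod1 stood at 208 and 343 CPM, Actc1 at 418 and 752 and Tnnt1, a slow troponin T, at 297 and 551. Pax3 stood at 144 and 81.2 CPM, a ratio of 0.564 (0.464 to 0.683), and was lower within cells of 2 or fewer differentiation UMIs too, at 0.626 (0.495 to 0.788). Meox2 was at 0.549 of wild type in muscle (0.453 to 0.664) and at 0.956 in mesenchyme, so its difference was not shared by the surrounding cells. Itga4, an integrin of migrating precursors, was at 0.578 (0.483 to 0.691). Unlike Meox2, Itga4 did not fall with differentiation: in the split by differentiation UMIs it rose by 0.62 ± 0.14, in 5 of 6 libraries.

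The immediate early genes were higher in Dup as well, 6 of 9 past 1.5-fold and none lower. Jun stood at 177 and 613 CPM, a ratio of 3.46 (3.08 to 3.89), Fos at 3.03 (2.52 to 3.64), Egr1 at 2.18 (1.83 to 2.60) and Rhob at 4.3 (3.13 to 5.99). In mesenchyme of the same libraries the ratios were 1.91, 3.19, 4.44 and 1.90, so these genes were high in Dup cells of both classes. They are known to respond to cell dissociation, and the part of handling was not tested. Id1, a target of BMP signalling, was 2.16-fold higher (1.96 to 2.39) and 1.5-fold in mesenchyme. At the low end stood Ptn (0.581), Macrod2 (0.506), the histone gene H2ac8 (0.464), the ribosomal protein gene Rps29 (0.671) and Gm10076 (0.521), all lower in mesenchyme too.

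The C57BL/6 and Dup libraries also differed in which part of the limb was sampled. Autopod mesenchyme made up 14.5% of wild-type and 31.6% of Dup cells, and stylopod mesenchyme 30.6% and 16.7%. In muscle Hoxa13, the gene of the autopod, stood at 6.65 CPM in wild type and 29.5 in Dup, and cells carrying 5 or more mesenchymal markers made up 18.2% and 7.98% of the muscle cells. Under the other settings, leaving out these cells among them, the ratio of differentiation to precursor list was 1.64 to 2.36 times that of wild type. The part of the regions in the shift of muscle, and of these cells in single genes, was not tested.

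In Inv1, H19 and then 7 sarcomere genes were the 8 highest among the genes that were higher in both limbs. The differentiation list had 15 of 16 genes past 1.5-fold in the hindlimb and 14 of 16 in the forelimb, with none lower. Over all genes 2.44% were higher and 0.503% lower past 1.5-fold in the hindlimb (2.05% and 0.639% after centring), and 2.19% and 18.4% in the forelimb (4.51% and 6.29% after centring by length). Centring left 14 and 0 for the list in the forelimb. Of the fusion and excitation list, 6 of 8 measured genes were higher in the hindlimb and 4 of 11 in the forelimb, with none lower.

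Myl4, the embryonic myosin light chain, stood at 46.4 and 167 CPM in wild-type and Inv1 hindlimb and at 40.6 and 446 in the forelimbs, ratios of 3.59 (3.05 to 4.25) and 11 (8.77 to 13.9). Tnnc2, fast troponin C, had ratios of 2.73 (2.43 to 3.07) and 6.57 (5.53 to 7.86), and Tnnc1, its slow counterpart, of 1.93 (1.76 to 2.11) and 5.63 (4.96 to 6.42). Myh3, the embryonic myosin heavy chain, had ratios of 3.03 (2.55 to 3.61) and 2.66 (2.30 to 3.08), and Actc1 of 1.90 (1.82 to 1.98) and 2.20 (2.10 to 2.30). Skeletal actin, Acta1, stood at 95 CPM in wild type and 182 in Inv1 hindlimb and at 41.1 and 418 in the forelimbs. Ttn, the giant spring of the sarcomere and a very long gene, stood at 132 and 325 CPM in the hindlimbs and at 857 and 692 in the forelimbs, where its ratio of 0.807 (0.757 to 0.860) became 1.09 after centring by length. Of these 7 genes, 5 had the larger ratio in the forelimb (6 after centring), and the difference between the limbs was not tested. Among genes counted in the G4 libraries alone, Myh7, the slow myosin heavy chain, stood at 0, 7.28, 1.98 and 27.7 CPM in wild-type hindlimb, Inv1 hindlimb, wild-type forelimb and Inv1 forelimb, and Myh8, the perinatal one, at 0, 0, 4.46 and 15.0.

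H19, an imprinted non-coding RNA, had ratios of 2.97 (2.74 to 3.22) in hindlimb and 3.10 (2.83 to 3.40) in forelimb muscle and of 3.69 and 2.45 in mesenchyme. Its difference was thus shared across classes. Pax3 was lower in both Inv1 limbs, at 69.0 CPM against 110 and at 31 against 61.9. Tcf15, a bHLH factor of the somite, was at 0.480 (0.410 to 0.561) and 0.589 (0.458 to 0.758), Igfbp5 at 0.694 and 0.528 and Ptn at 0.763 and 0.616 (0.831 after centring). Msc stood at 175 and 172 CPM in the hindlimbs and at 156 and 242 in the forelimbs.

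**Figure D4:**
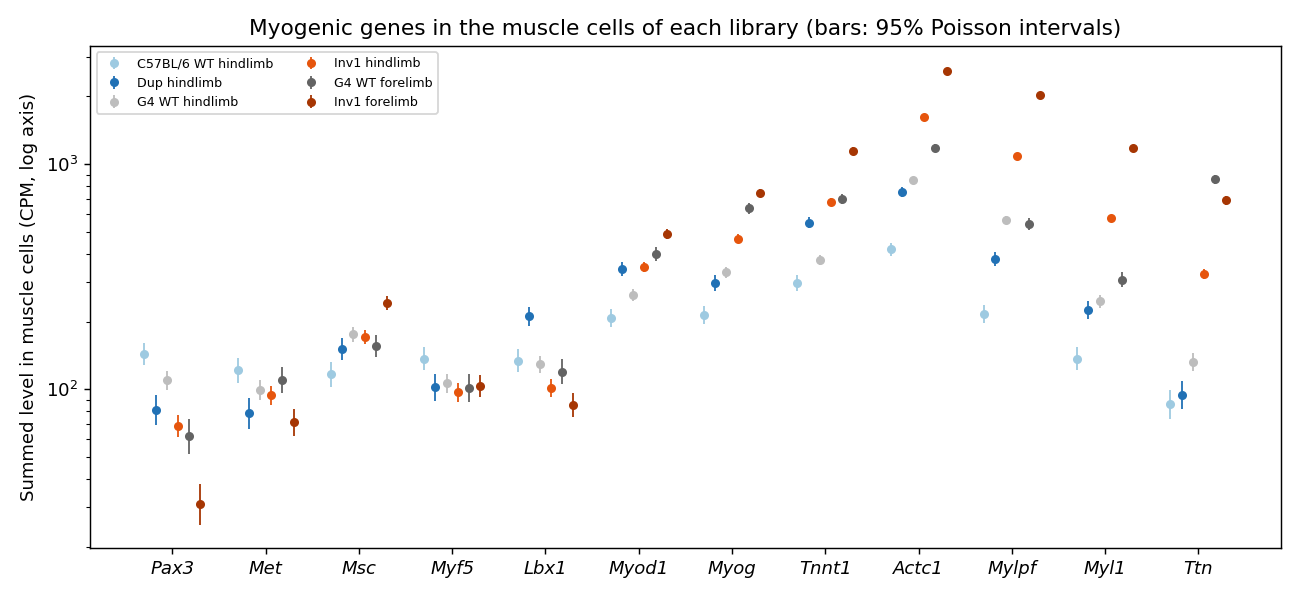
CPM in the muscle cells of each library (log axis) for genes ordered from precursor factors to sarcomere genes, with 1 point per library and 95% Poisson intervals as bars. Pax3 is highest in the C57BL/6 wild-type hindlimb (144) and lowest in Inv1 forelimb (31), and Actc1 runs the other way (418 and 2597).

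Forelimb and hindlimb muscle of the same genotype were compared in G4 wild type and in Inv1; these comparisons share their libraries with those of Inv1 and wild type. The ratio of differentiation to precursor list was 1.75 times higher in the forelimb in wild type (1.59 to 1.92) and 1.72 times in Inv1 (1.59 to 1.87). In Inv1, 15 of 16 differentiation genes were over 1.5-fold higher in the forelimb and none lower, where 5% of all genes were higher and 1.12% lower (4.4% and 1.27% after centring). In wild type 6 of 15 were higher and 1 lower, 6 and 3 after centring, where all genes stood at 32.5% and 2.2%, or 13% and 8.6% after centring, and their median log2 ratio was 0.26. Cells with 5 or more mesenchymal markers made up 8.60% of hindlimb and 27.7% of forelimb muscle cells in wild type and 8.58% and 16.7% in Inv1. The mesenchymal list was 1.89 times higher in the wild-type forelimb (1.71 to 2.10) and 1.51 times in that of Inv1 (1.37 to 1.67). Without the cells of 5 or more mesenchymal markers, the ratio of differentiation to precursor list was 2.05 in wild type and 2.27 in Inv1. The part of the mesenchymal list in the ratios of single genes was not tested.

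The genes higher in the forelimb of both genotypes included regulators as well as sarcomere genes. Mef2c stood at 80.2 and 191 CPM in wild type and at 154 and 303 in Inv1, ratios of 2.39 (2.05 to 2.78, or 1.38 after centring by length) and 1.97 (1.78 to 2.17). Myh3 had ratios of 2.61 (2.14 to 3.20) and 2.30 (2.07 to 2.55), and Ttn of 6.48 (5.87 to 7.16, or 3.83 after centring) and 2.13 (1.99 to 2.28). Plagl1, an imprinted zinc finger gene, had ratios of 3.45 (2.93 to 4.07) and 2.19 (1.87 to 2.56) in muscle and of 1.09 and 1.25 in mesenchyme, larger in muscle than in the surrounding cells. Meg3, an imprinted RNA, stood at 2.09 and 1.96, the matrix protein Sparc at 3.38 and 2.43 and Lrrn1 at 3.67 and 2.22. Within late cells (10 or more differentiation UMIs) the differentiation list of the wild-type forelimb was at 0.592 of the hindlimb (0.576 to 0.609), so that this library held more late cells and less of the list within them.

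Meox2 was lower in forelimb muscle, at 146 and 89.2 CPM in wild type and at 163 and 86.6 in Inv1, ratios of 0.612 (0.514 to 0.725, or 0.383 after centring) and 0.531 (0.459 to 0.613), whereas mesenchyme gave 1.56 and 1.21. Before centring, muscle and mesenchyme thus differed in direction for this gene. The mesenchyme ratios were not centred. Genes of like length had a median log2 ratio in mesenchyme of 0.60 in wild type and 0.14 in Inv1. Whether Meox2 was higher in forelimb mesenchyme beyond this effect of length was not tested. The other genes named as lowest were Ldhb at 0.467 and 0.669, Nme1 at 0.605 and 0.714, Phgdh at 0.672 and 0.649, Prdx6 at 0.696 and 0.745, Sec61b at 0.721 and 0.722, Rps27l at 0.632 and 0.754, and the histone gene H2az1 at 0.690 and 0.764, and all but Ldhb were also lower in mesenchyme of both genotypes. Pax7, which marks the precursors that will later form satellite cells, was low everywhere and higher in the forelimbs, at 6.18, 6.77, 6.75, 7.97, 17.3 and 19.7 CPM.

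The levels of some Hox genes in muscle cells differed between forelimb and hindlimb, although these cells come from outside the limb. The source of this difference was not tested. Hoxc10 stood at 88.9, 111, 52.9, 49.2, 0 and 0.333 CPM, at least 35.6-fold lower in the forelimb than in the hindlimb of G4 wild type, and Hoxc9 at 68.0, 63.8, 33.5, 46.4, 0 and 0.999, at least 22.5-fold lower. In hindlimb mesenchyme Hoxc10 stood at 33.9 to 125 CPM, the same order as in muscle. For Pitx1, the selector gene of the hindlimb, this was not so: hindlimb muscle held 5.45 to 36.1 CPM and hindlimb mesenchyme 216 to 333. Tbx5, the forelimb selector, stood at 5.95 and 4 CPM in wild-type and Inv1 forelimb muscle and at 117 and 81.3 in mesenchyme. In muscle the mesenchymal marker list stood at 8.79 to 14.4% of its mesenchymal level, the cartilage list at 9.91 to 16.8% and the connective tissue list at 37.8 to 56.2%. The part of mesenchymal RNA in the selector and Hox values was not tested.

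Of the HoxD genes, Hoxd9, Hoxd10 and Hoxd11 were lower in forelimb than in hindlimb muscle and higher in forelimb than in hindlimb mesenchyme, while Hoxd13 was not lower in forelimb muscle. Hoxd11 stood at 84.6, 48.3, 47.0, 36.2, 11.4 and 12.3 CPM in muscle, a forelimb over hindlimb ratio of 0.243 (0.150 to 0.376) in wild type and 0.341 (0.231 to 0.490) in Inv1, while mesenchyme gave 1.69 (1.65 to 1.74) and 1.82 (1.77 to 1.86). Hoxd9 gave 0.133 (0.0264 to 0.416) and 0.139 (0.0158 to 0.570) in muscle and 1.60 and 1.62 in mesenchyme. Hoxd10 gave 0.0734 (0.00179 to 0.447, from a single UMI in the forelimb) and 0.454 (0.189 to 0.986) in muscle and 1.91 and 2.03 in mesenchyme. Hoxd13, which marks the distal limb, gave 2.77 (1.51 to 5.16) and 1.17 (0.686 to 1.98) in muscle and 3.20 and 1.91 in mesenchyme.

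Lbx1 lies inside the duplicated segment and marks these cells, so it was followed along the range. It fell with differentiation: in cells of 2 or fewer differentiation UMIs it stood at 144, 243, 144, 116, 157 and 111 CPM, and in cells of 10 or more at 59.6, 119, 42.9, 48.3, 79.1 and 57. The difference was -1.06 ± 0.12 on the log2 scale over 6 libraries (edgeR adjusted p = 7.04e-08, lower in 6 of 6), whereas between myocyte and precursor range it was -0.27 (adjusted p = 0.25). In the middle range it stood at 111, 255, 152, 98.2, 138 and 90.3 CPM, close to the 125, 196, 136, 104, 148 and 87.1 of the precursor range.

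In early cells, those of 2 or fewer differentiation UMIs, Lbx1 was 1.69-fold higher in Dup than in wild type (1.41 to 2.03). In Inv1 it was at 0.806 of wild type in the hindlimb (0.687 to 0.944) and at 0.704 in the forelimb (0.530 to 0.935). These early cells were not matched in position: the differentiation list within them read 212, 298, 217, 341, 379 and 475 CPM, higher in each mutant. In cells of 3 to 9 differentiation UMIs the ratios were 1.68 (1.16 to 2.48), 0.900 (0.689 to 1.18) and 0.785 (0.585 to 1.06), and for both Inv1 limbs that interval includes 1. Btrc and Dpcd, neighbours inside the duplicated segment, stood at 65.2 and 91.8 CPM in Dup muscle and at 35.2 and 40.9 in wild type. Between the wild-type hindlimbs Lbx1 in early cells differed by a ratio of 1.00 (0.850 to 1.18), in contrast to the differentiation list.

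**Figure D5:**
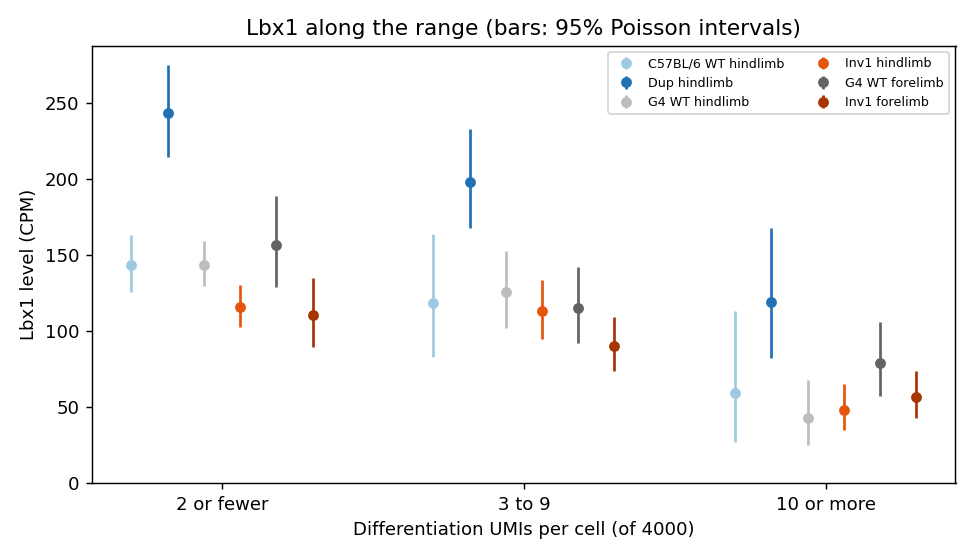
Lbx1 level (CPM, vertical axis) in muscle cells of each library with 2 or fewer, 3 to 9 and 10 or more differentiation UMIs of 4000; bars are 95% exact intervals of the counts. In each library the level of early cells is above that of late ones, and the Dup points (243, 199 and 119) lie above the others in each group of cells.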

How the data were processed

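Limbs were dissociated and sequenced by the authors with droplet 3′ chemistry (10x Genomics v2) and aligned with Cell Ranger 3; the labels name mm9 and mm10, and the annotation release and strand setting are not given in the sources used here. The deposited values are UMI counts per gene and cell, not normalised, in 2 matrices of 6944 and 19542 cells. The authors kept cells with over 2000 genes, under 10% mitochondrial reads and a Scrublet doublet score of at most 0.2, integrated the libraries and named clusters from markers; doublets were not called again. The same limit of 2000 genes was applied here to every cell, over the 15668 genes found in both matrices, of which 14534 were matched to symbols; 242 of 252 list genes were found. A further 14 columns of the cell table were not used.

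Each group was a single library with no replicate, so groups were compared by CPM ratios with 95% exact intervals of counts, which cover counting error only; a floor of 3 counts stands for 0. Within libraries, summed counts of the myocyte and precursor ranges were compared by edgeR 4.0.16 after a filter on low counts. This filter also passed genes that averaged under 20 CPM. The settings were the quasi-likelihood test, TMM, library as block and a Benjamini-Hochberg adjusted p under 0.05. Libraries with 10 or more cells in both ranges entered, and DESeq2 1.42.0 was run as an alternative. On simulated counts of 5578 genes this contrast recovered 79 of 100 genes changed 2-fold and 88 of 100 changed 4-fold, with 11 false calls of 178. On simulated counts of 7184 genes the split by differentiation UMIs recovered 78 and 92 of 100, with 6 false calls of 176. Genes of the contrast were named where they passed the test, had a mean of 20 or more CPM and moved the same way in every library, the 12 highest and 12 lowest. In each pair of libraries the 8 highest and 8 lowest log2 ratios were named, after 50 CPM had been added to both levels, among genes averaging at least 50 CPM and leaving out the locus, haemoglobin, Xist and Y-linked genes; for Inv1 and for limbs the sign had to be the same in both pairs. List members were named as well, except some that are not reported here. The members, lists and ranges were chosen with earlier results of these data known. Length centring subtracted the median log2 ratio of genes in 6 bins of genomic length. Python 3.11.15, scipy 1.17.1 and R 4.3.3 were used.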

Additional observations from a re-analysis of the deposited data

Results flagged for a closer look

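Some list genes differed in opposite directions in 2 pairs of libraries under the same contrast, with both intervals on their own side of 1. Those given here also kept opposite directions after centring by gene length, with both centred ratios at least 1.2-fold from 1, and had a mean of at least 20 CPM in both pairs. These differences were not tested, since each ratio rests on 1 library a group, and each involves the G4 wild-type forelimb, in which long genes read high. Between Inv1 and wild type, 17 list genes had opposite intervals in hindlimb and forelimb muscle, 15 of them also after centring by length, and 5 met all these conditions. Of these, 3 proliferation genes were higher in the Inv1 hindlimb and lower in the Inv1 forelimb: Mki67 had ratios of 1.57 and 0.479, Cenpf of 1.51 and 0.573 and Bub1 of 1.39 and 0.642. Of the 16 genes of the G2/M list, 3 were over 1.5-fold higher in the hindlimb (1 after centring) and 7 lower in the forelimb (3 after centring), and of the 14 of the S-phase list 0 and 2. Over all genes 2.44% were higher in the hindlimb (2.05% after centring) and 18.4% lower in the forelimb (6.29% after centring). Ptch1, a receptor and target of hedgehog signalling, had ratios of 1.46 and 0.575. Hoxa13, the autopod gene, had ratios of 3.11 and 0.672.

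Between forelimb and hindlimb, 13 list genes had opposite intervals in G4 wild type and Inv1, 12 of them also after centring, and 6 met all conditions. Of these, 3 sarcomere genes were lower in the forelimb of wild type and higher in that of Inv1, with ratios of 0.433 and 2.29 for Acta1, 0.716 and 2.09 for Tnnc1 and 0.709 and 1.71 for Tnnc2. Over the whole sarcomere list 5 of 18 genes were over 1.5-fold higher and 1 lower in the wild-type forelimb, with a median log2 ratio of 0.24, and 16 of 19 were higher and 0 lower in that of Inv1. Over all genes of the wild-type pair 32.5% were higher and 2.2% lower, with a median of 0.26, so the list did not stand out there. After centring the list had 5 higher and 3 lower, and all genes stood at 13% and 8.6%. In the Inv1 pair 5% of all genes were higher and 1.12% lower. The other 3 of the 6 genes ran the other way, with ratios of 2.55 and 0.778 for Mki67, 1.69 and 0.840 for Top2a and 1.61 and 0.747 for Bub1.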

How the results depend on the processing

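No paired analysis was possible because the groups compared share fewer than 2 replicate numbers: each is 1 library. Over the alternatives run, 162 values were within the limits set and 92 moved; the cause was not tested. In library order, muscle shares among cells with over 3000 genes were 9.39, 9.18, 6.63, 7.81, 6.28 and 5.90%, and by a marker gate 7.60% in C57BL/6 wild type and 5.17% in G4 wild-type forelimb. Cells with 10 or more differentiation UMIs made up 9.85, 16.5, 12.7, 21.3, 30.4 and 32.1%. The myocyte share with cuts at 1/4 and 3/4 was 38.8% in Dup, 36.9% in Inv1 hindlimb and 58.3% in Inv1 forelimb. In Dup it was 38.8% after thinning to 3000 UMIs and 42.6% with Lbx1 in the precursor list. The ratio of differentiation to precursor list as a mean over cells was 1.64 for Dup, 1.77 for Inv1 hindlimb, 1.64 for Inv1 forelimb and 1.48 for limbs of Inv1. With over 3000 genes it was 2.59 for Inv1 hindlimb, 2.02 for wild-type limbs and 2.18 for the wild types, and without cells of 5 or more mesenchymal markers 2.0 for Inv1 hindlimb, 2.05 and 2.27 for limbs of wild type and Inv1 and 2.33 for the wild types. The Lbx1 ratio in the precursor range was 0.587 for Inv1 forelimb and 1.09 for wild-type limbs, where it was 0.928 over all muscle cells (0.793 to 1.08) and 0.727 with median-of-ratios scaling. Genes past 1.5-fold, higher and lower, were 85 and 153 for Dup, 126 and 26 for Inv1 hindlimb, 129 and 1081 for Inv1 forelimb, 1847 and 125 for wild-type limbs, 268 and 60 for Inv1 limbs and 138 and 462 for the wild types. From 50 CPM they were 32 and 38, 45 and 6, 57 and 399, 695 and 59, 91 and 18 and 52 and 187 in that order, and from 10 CPM 232 and 402, 282 and 58, 257 and 1628, 2774 and 206, 528 and 131 and 278 and 800. With over 3000 genes Dup had 137 higher. Median-of-ratios scaling gave 110 and 108 for Dup, 89 and 41 for Inv1 hindlimb, 381 and 426 for Inv1 forelimb, 832 and 1093 for wild-type limbs and 223 and 284 for the wild types, and length centring 265 and 370, 737 and 489 and 215 and 276 for the last 3. The higher share of called genes went from 35.7, 82.9, 10.7, 93.7 and 23% to 50.5, 68.5, 47.2, 43.2 and 44.0% under median-of-ratios scaling, and for Inv1 forelimb, wild-type limbs and the wild types to 41.7, 60.1 and 43.8% with length centring. For Dup it was 45.7% from 50 CPM and 45.8% with over 3000 genes. The G2/M share without thinning was 94.7, 93.6, 96.4, 92.2, 97.3 and 85.7%, and from 3 UMIs 72.9% in Dup, 72.4 and 73.5% in G4 wild-type and Inv1 hindlimb and 54.8% in Inv1 forelimb. The range contrast called 645 higher with no filter, 218 higher and 41 lower without the library block, 206 and 55 with DESeq2, 405 lower without thinning and 1454 and 1339 by differentiation UMIs. Leaving out 1 library gave 256 to 421 higher and 117 to 217 lower, both lowest without the Inv1 hindlimb, with 138 lower without the G4 wild-type hindlimb. The length centring, the use of all 6 libraries and the split by differentiation UMIs were chosen after seeing the data. Some 112 to 268 cells a library limit what can be seen of rare late cells.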
